A study of Mus musculus with 6 samples.

Results

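The genes described here are those through which β-amyloid (Aβ), the peptide cut from the amyloid precursor protein (APP), is carried, taken up and degraded. They were taken by name with no filter on their values, though earlier results of these data were known when they were chosen. The genes are Apoe, Clu, Lrp1, Sorl1, Mme, Ide, Ece1, Ece2, Picalm and Bin1. Of these 10 genes, 8 had a probe set named in the annotation of the array, among 22206 probe sets tested in all, and Ece2 and Picalm are not analysed here. They are 8 of 19505 genes with a symbol on the array, and each had 1 probe set.

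The RNA of 6 olfactory bulbs (OBs) was compared, 3 from Tg2576 mice and 3 from WT littermates, each mouse on its own Clarion S array (Affymetrix, mouse). All mice were female and 18 months old. Tg2576 mice carry a human APP transgene with the Swedish double mutation under the hamster prion promoter, and develop Aβ deposits with age. WT mice lack the transgene. All levels are RMA values on the log2 scale, as the authors deposited them, and the 3 mice per genotype limit the precision of every difference. The mouse App probe set averaged 12.34 (SD 0.026) in the Tg2576 group, against 12.36 (SD 0.073) in WT mice, and as the sources used here do not say whether it binds the human transgene, it gave no check of the labels.

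Aβ leaves brain tissue along several routes. Lipoproteins of glial origin such as apolipoprotein E and clusterin bind it outside the cell, receptors of the LDL receptor family take up the loaded particles, and zinc metalloproteases such as neprilysin and insulin-degrading enzyme cut it. The supply of new peptide is set in part inside endosomes, where sorting receptors and endocytic adaptors steer APP towards or away from the enzymes that cleave it. Several of these genes, among them APOE, CLU, SORL1, PICALM and BIN1, are known from human genetics as risk loci of Alzheimer's disease.

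None of the 8 genes was called different between Tg2576 and WT OBs. A probe set was called where it passed the limits with which the study listed its array results, a p under 0.01 before adjustment together with a fold above 1.3 or below 0.7. The p came from limma, which fits a linear model per probe set and shrinks its variance towards the common one. Of all probe sets 0.797% were called, so 0 of 8 genes is near that share. At an unadjusted p under 0.05, 1 of the 8 genes stood out, Mme, against 8.54% of all probe sets. With limma-trend and robust moderation 1 gene was called, again Mme, against 0.887% of all probe sets. By the same fit 3 genes had an unadjusted p under 0.05, against 8.66%, with Mme and Apoe higher and Sorl1 lower in Tg2576 OBs. The difference between genotypes was above 0 for 6 genes and below 0 for Sorl1 and Bin1. The median of the 8 differences was 0.11, against -0.0049 over all probe sets, and the median size of a difference was 0.13, against 0.081. For 5 of the 8 genes, Clu, Lrp1, Sorl1, Ece1 and Bin1, the 95% confidence interval of the fold lay wholly between 0.7 and 1.3. In bulk tissue, fewer cells of a type and less RNA per cell cannot be told apart, which holds for every value that follows.

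**Figure D1:**
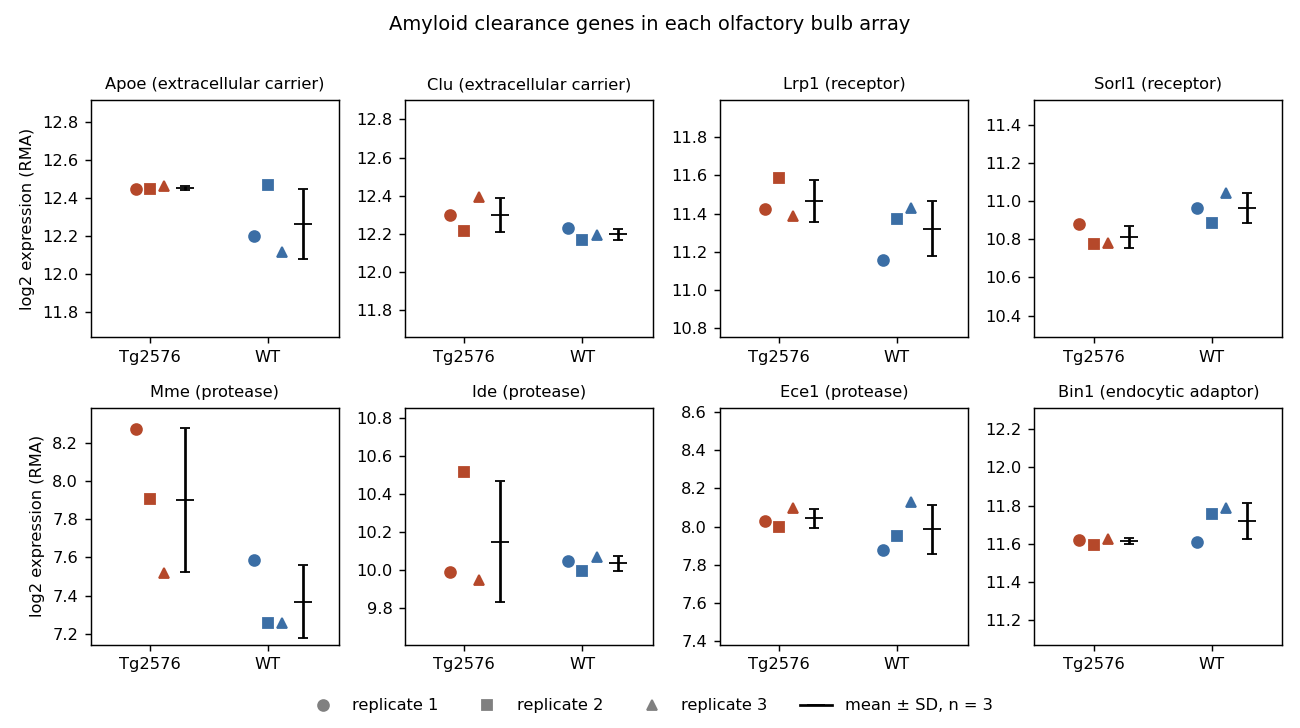
Log2 expression of each gene (y axis, RMA values, the same span of 1.24 in every panel) in the 3 Tg2576 and the 3 WT arrays, with replicates by symbol and mean ± SD as bars. Mme lay highest in Tg2576 replicate 1 (8.27), Ide stood apart in Tg2576 replicate 2 (10.51), and the 3 Tg2576 values of Apoe lay close together (SD 0.0090).

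The proteases were described first, since they held the largest difference. Mme encodes neprilysin, a membrane metalloprotease of the neutral endopeptidase family that cuts many short peptides, Aβ among them. Its log2 level was 8.27, 7.91 and 7.52 in Tg2576 replicates 1, 2 and 3, against 7.59, 7.26 and 7.26 in WT replicates 1, 2 and 3. Tg2576 replicates 1 and 2 lay above every WT array, while Tg2576 replicate 3 lay below WT replicate 1, so the genotypes overlapped in that pair. Mme averaged 7.90 ± 0.38 in Tg2576 mice, against 7.37 ± 0.19 in WT mice (SD, n = 3 each). The log2 difference was 0.53 (SE 0.18, 95% confidence interval 0.12 to 0.95), a fold of 1.45 (1.09 to 1.93) with a Benjamini-Hochberg adjusted p = 0.506 in limma. Only 0.53% of all probe sets differed by more. The fold passed its threshold, while the unadjusted p was under 0.05 and did not pass 0.01.

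The verdict on Mme turned on single arrays and on the variance model. Without Tg2576 replicate 3 the difference was 0.72 and passed both thresholds in limma, and without Tg2576 replicate 1 it was 0.35 and passed neither. With limma-trend and robust moderation the same difference of 0.53 was called. Mme also lay in a dim range of the array. In its lowest array only 56.8% of the 5222 negative control probe sets were below it, and differences are compressed there. Markers of other tissue varied across the same arrays. Relative to its mean in WT mice, the average log2 level of 9 meningeal and fibroblast markers was shifted by 0.37, 0.16 and 0.057 in Tg2576 replicates 1, 2 and 3, against 0.00020, 0.13 and -0.13 in WT replicates 1, 2 and 3. In that list 7 of 9 genes lay above 0 and 2 below, and 2 were called, both higher (Dcn and Bgn, matrix proteoglycans). These 2 did not follow the falling shift of the list. Dcn was at 11.29, 11.37 and 11.15, and Bgn at 10.50, 10.55 and 10.43, in Tg2576 replicates 1, 2 and 3. For 11 markers of non-neuronal olfactory mucosa, the shift was 1.98, -0.18 and 1.98 in Tg2576 arrays, against -0.29, -0.16 and 0.45 in WT arrays. Of these 11, 1 was called, Trp63. It did not follow that shift, with 7.53, 8.09 and 7.65 in Tg2576 replicates 1, 2 and 3. The part of either list in the Mme values was not tested.

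Over the 6 arrays, the 3 genes whose values ran closest to those of Mme were Dis3l (Pearson's r = 0.989), Nat8f5 (r = 0.988) and Zfand2a (r = 0.987). These were the highest of 19505 named genes over 6 arrays, and they are given as a description only. Nat8f5 was at 6.87, 6.67 and 6.29 in Tg2576 replicates 1, 2 and 3, against 6.36, 6.01 and 5.96 in WT replicates 1, 2 and 3. Like Mme it was highest in Tg2576 replicate 1, with Tg2576 replicate 3 below WT replicate 1.

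Mme is shown because it carried the largest difference of the set, here by its second start, whose window holds the letters marked below. The window runs from 250 bases before to 50 bases after the second of 3 RefSeq starts, at chr3:63295622-63295921 on the plus strand of GRCm38.p6, and the capitals mark TGANTCA, the letters bound by AP-1 (Fos and Jun) dimers.
Mme: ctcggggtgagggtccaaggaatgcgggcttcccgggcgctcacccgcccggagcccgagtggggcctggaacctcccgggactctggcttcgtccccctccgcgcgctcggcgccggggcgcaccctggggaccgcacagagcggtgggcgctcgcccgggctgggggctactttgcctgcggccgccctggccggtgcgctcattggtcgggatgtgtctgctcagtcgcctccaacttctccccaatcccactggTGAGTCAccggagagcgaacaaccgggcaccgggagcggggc
The match begins 8 bases after the annotated start, and the overlapping window of the third start holds the same copy. The window of the first start holds no such match. All 3 windows of Mme also hold the GC box letters described further on, which are not in capitals. Of 32851 such windows of all genes, 7.81% held TGANTCA on either strand.

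Ide encodes insulin-degrading enzyme, a zinc metalloprotease of the cytosol and cell surface that degrades insulin and Aβ. Its log2 level was 9.99, 10.51 and 9.95 in Tg2576 replicates 1, 2 and 3, against 10.05, 9.99 and 10.07 in WT replicates 1, 2 and 3. Tg2576 replicate 2 stood apart, while the remaining 5 arrays lay between 9.95 and 10.07. The difference was 0.11 (SE 0.14, 95% confidence interval -0.22 to 0.44, adjusted p = 0.881 in limma) and turned to -0.069 without that array, where both other Tg2576 values lay below all WT values. Ece1 encodes endothelin-converting enzyme 1, a relative of neprilysin that can also cut Aβ. It was at 8.03, 7.999 and 8.10 in Tg2576 OBs, against 7.88, 7.95 and 8.13 in WT OBs, and WT replicate 1 was the lowest and WT replicate 3 the highest of the 6 arrays. The difference was 0.058 (SE 0.088, 95% confidence interval -0.14 to 0.26, adjusted p = 0.907 in limma). It was 0.0038 without WT replicate 1 and 0.13 without WT replicate 3. Like Mme, Ece1 was dim, with 68.5% of the negative controls below its lowest array.

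The carriers are made largely by glia. Apoe, the main lipid carrier made by astrocytes, had nearly the same level in the 3 Tg2576 OBs, 12.45, 12.45 and 12.46. In WT OBs it was at 12.20, 12.47 and 12.12. WT replicate 2 thus lay just above the Tg2576 arrays and the other WT arrays lay below them. The SD was 0.0090 in Tg2576 and 0.18 in WT OBs (n = 3 each). The difference was 0.19 (SE 0.10, 95% confidence interval -0.038 to 0.42), a fold of 1.14 with adjusted p = 0.649 in limma. Without WT replicate 2 the difference was 0.29, where the unadjusted p passed 0.01 and the fold stayed under 1.3, and without WT replicate 3 it was 0.12. With limma-trend the unadjusted p of Apoe was under 0.05. Clu encodes clusterin, also called apolipoprotein J, an extracellular chaperone. It was at 12.30, 12.21 and 12.39 in Tg2576 OBs, against 12.23, 12.17 and 12.19 in WT OBs. Tg2576 replicate 2 lay between the WT values and the other Tg2576 arrays lay above them. The difference was 0.10 (SE 0.078, 95% confidence interval -0.076 to 0.28, adjusted p = 0.779 in limma), and it was 0.058 without Tg2576 replicate 3. Astrocyte markers, measured as 10 genes, differed in the same direction for 8 genes. Of these 10, 1 was called (Gfap, higher by 0.43, SE 0.11) and 6 had an unadjusted p under 0.05. Relative to WT mice their mean was shifted by 0.13, 0.20 and 0.12 in Tg2576 replicates 1, 2 and 3, against -0.0041, 0.024 and -0.019 in WT replicates 1, 2 and 3. The part of astrocyte content in the Apoe and Clu values was not tested. Microglia also make apolipoprotein E around plaques. Of 9 microglial markers 6 lay above 0 and 3 below, with a median of 0.061, and 0 were called in limma. Only 1, Csf1r, had an unadjusted p under 0.05, with the highest difference of the list, 0.22 (SE 0.092).

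**Figure D2:**
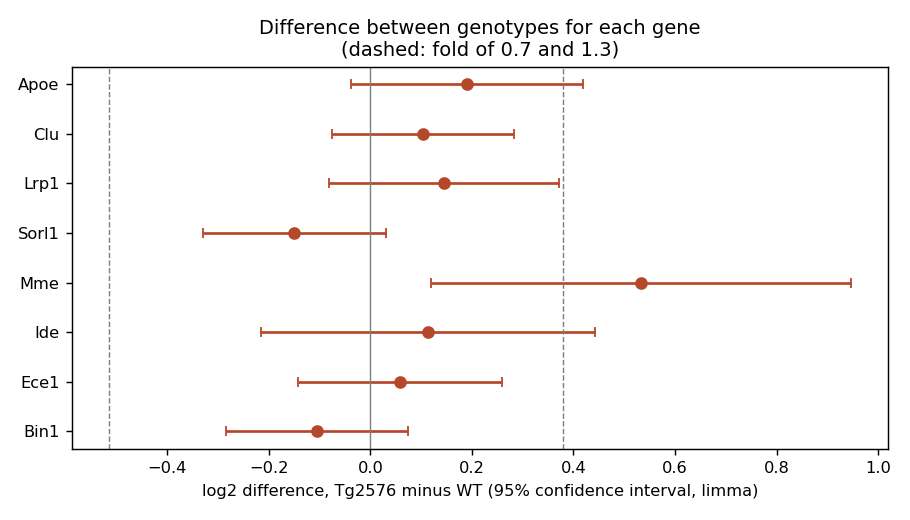
Log2 difference, Tg2576 minus WT (x axis), with its 95% confidence interval from limma for each gene (y axis), and dashed lines at folds of 0.7 and 1.3. Only the interval of Mme (0.12 to 0.95) excluded 0, and those of Apoe, Mme and Ide reached past the fold of 1.3.

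The 2 receptors had differences of opposite sign, and neither was called. Lrp1 encodes a large endocytic receptor of the LDL receptor family that takes up apolipoprotein E and Aβ. Its level was 11.42, 11.59 and 11.39 in Tg2576 OBs, against 11.16, 11.37 and 11.43 in WT OBs. WT replicate 1 was the lowest array and Tg2576 replicate 2 the highest. The difference was 0.15 (SE 0.099, 95% confidence interval -0.081 to 0.37, adjusted p = 0.740 in limma), and it was 0.064 without WT replicate 1 and 0.084 without Tg2576 replicate 2. Sorl1 encodes SORLA, a sorting receptor with a VPS10 domain that retains APP in the Golgi and recycles it from endosomes. It was at 10.88, 10.78 and 10.78 in Tg2576 OBs, against 10.96, 10.88 and 11.04 in WT OBs. Sorl1 was the only one of the 8 genes whose genotypes did not overlap, with every Tg2576 array below every WT array, by a gap of 0.0031 between Tg2576 replicate 1 and WT replicate 2. Of all probe sets 14.1% had no overlap between the genotypes, so 1 of 8 is near that share. The log2 difference was -0.15 (SE 0.079, 95% confidence interval -0.33 to 0.031), a fold of 0.90 with adjusted p = 0.651 in limma. Without 1 array it ranged from -0.19 to -0.11. With limma-trend the unadjusted p of Sorl1 was under 0.05. After centring each array on its median the arrays of Sorl1 overlapped.

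Sorl1 is shown because it was the gene without overlap, here by its first start, whose window holds the letters marked below. The window lies at chr9:42124248-42124547 on the minus strand of GRCm38.p6, around the first of 2 RefSeq starts. The capitals mark GCGTGGGCG, the letters bound by Egr factors, here on the opposite strand, and CACGTG, the E-box core, neither overlapping the other.
Sorl1: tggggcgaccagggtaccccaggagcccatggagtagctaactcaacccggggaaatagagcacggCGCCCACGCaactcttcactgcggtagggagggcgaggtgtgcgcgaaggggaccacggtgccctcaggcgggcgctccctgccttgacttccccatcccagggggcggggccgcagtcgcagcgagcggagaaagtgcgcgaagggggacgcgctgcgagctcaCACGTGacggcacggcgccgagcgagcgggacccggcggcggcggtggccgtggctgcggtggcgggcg
The Egr letters begin at -184 and the E-box at -19 from the start, and across all windows 0.61% held GCGTGGGCG and 7.15% held CACGTG. The window of the second start of Sorl1 holds neither. Of the 10 genes, 8 had windows in the RefSeq table, 16 in all. The AP-1 letters were found for Mme only, the Egr letters for Sorl1 only, the E-box for Sorl1, Ece1 and Picalm, and the cAMP response element TGACGTCA in 0 windows (1.79% of all windows). GGGCGG, the GC box, was present in 10 of the 16 windows and in 35.7% of all. A match is a run of letters and no measured binding.

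Bin1 encodes an adaptor with a BAR domain that bends membranes in endocytosis and is strongly expressed in neurons and myelinating oligodendrocytes. It was at 11.62, 11.59 and 11.62 in Tg2576 OBs, against 11.61, 11.76 and 11.79 in WT OBs. The Tg2576 arrays lay close together (SD 0.016, against 0.094 in WT OBs, n = 3 each), with WT replicate 1 among them and the other WT arrays above. The difference was -0.11 (SE 0.079, 95% confidence interval -0.29 to 0.075, adjusted p = 0.773 in limma). It was -0.16 without WT replicate 1 and -0.070 without WT replicate 3. After median centring all Tg2576 values of Bin1 lay below all WT values. Oligodendrocyte markers lay the other way. All 9 measured markers lay above 0, 2 of them were called (Cldn11 and Sox10, higher by 0.40 and 0.38), and their mean shift was 0.14, 0.39 and 0.38 in Tg2576 replicates 1, 2 and 3, against 0.094, -0.13 and 0.038 in WT replicates 1, 2 and 3. The part of oligodendrocyte content in the Bin1 values was not tested.

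**Figure D3:**
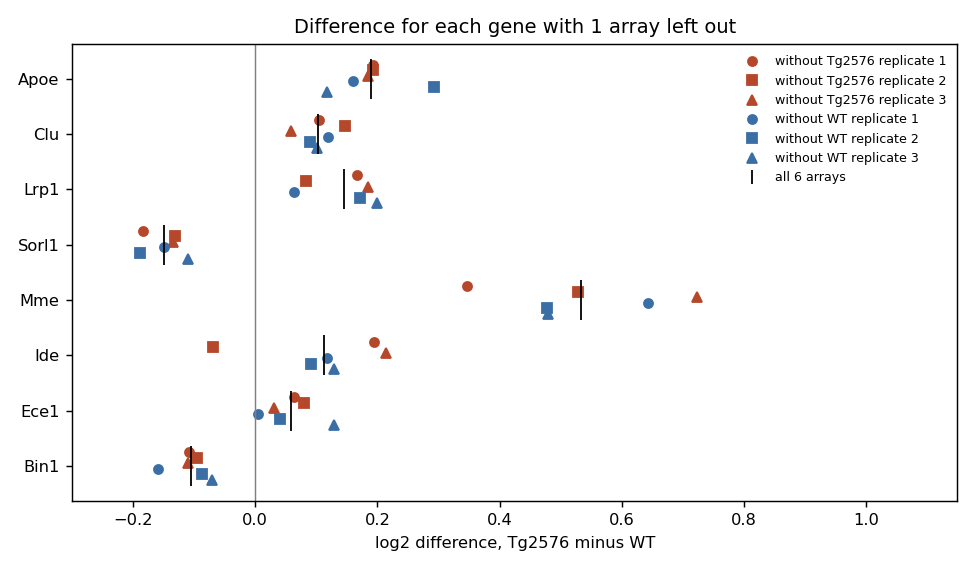
Log2 difference of each gene, Tg2576 minus WT (x axis), with 1 array left out (red symbols, a Tg2576 array; blue symbols, a WT array) and with all 6 arrays (black bars). Mme ranged from 0.35 to 0.72 and Ide changed sign without Tg2576 replicate 2 (-0.069).

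Other genes of the same routes were read in 5 lists, chosen with earlier results of these data known. They held 124 genes, of which 113 were measured, and 0 were called in limma or in limma-trend, against 0.797% of all probe sets. At an unadjusted p under 0.05, 14 of the 113 genes (12.4%) were higher in Tg2576 OBs and 0 were lower. Over all probe sets 4.57% were higher and 3.97% lower at that level. By limma-trend, at the same level, 15 genes lay above 0 and 0 below, against 5.03% above and 3.63% below over all probe sets. Of the 14 genes from limma, 10 lay in every array under the level that 95% of the negative controls did not exceed, as did 75 of the 113. In every array the median of all tested probe sets (8.18 to 8.22) also lay under that level (9.94 to 10.07). The share of all probe sets under it was not counted. In sum 84 of the 113 genes lay above 0 and 29 below, with a median of 0.052, against 48.4% of all probe sets above 0. For the 11895 probe sets with a mean level of at least 8, the median was 0.0095. The count of higher genes was 12 after a further quantile normalization, 13 after cyclic loess and 11 after median centring, with 0 lower genes in each. Without Tg2576 replicate 2 it was 6 and without WT replicate 3 it was 8, again with 0 lower genes. After median centring, 3.74% of all probe sets were higher and 4.91% lower. The pathway genes named below are the 3 of smallest p in each list, a choice that by itself favours arrays without overlap. Of all probe sets 14.1% had no overlap.

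**Figure D4:**
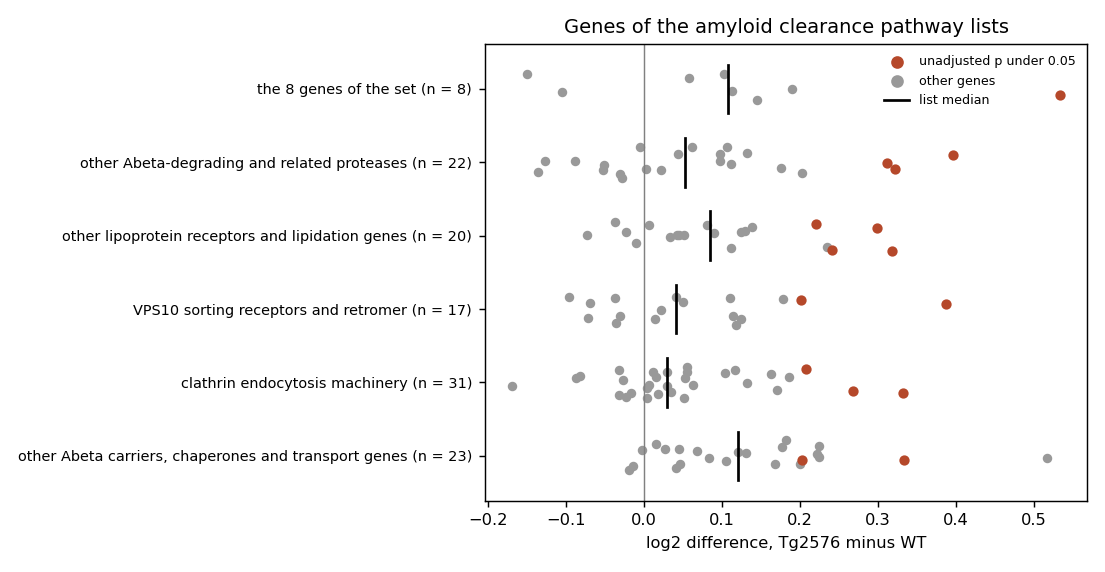
Log2 difference, Tg2576 minus WT (x axis), of every measured gene in the 8-gene set and in the 5 pathway lists (y axis), with list medians as black bars and genes with an unadjusted p under 0.05 in red. The medians lay between 0.030 and 0.12, and all red points lay above 0.

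Among 22 other Aβ-degrading and related proteases, not all of which are known to cut Aβ, 14 lay above 0 and 8 below, with a median of 0.053. Mmp14, a membrane-bound matrix metalloprotease, was at 8.64, 8.80 and 8.56 in Tg2576 OBs, against 8.29, 8.32 and 8.45 in WT OBs. The genotypes did not overlap, and the difference of 0.31 (SE 0.090, adjusted p = 0.453 in limma) was a fold of 1.24. Its unadjusted p passed 0.01 and its fold did not reach 1.3. Mmp9, a gelatinase, was at 7.09, 6.94 and 7.25 in Tg2576 OBs, against 6.68, 6.86 and 6.77 in WT OBs. It was at the level of the negative controls, whose medians were 6.78 to 6.84 in Tg2576 arrays and 6.84 to 6.91 in WT arrays, and 2 WT values lay below their array's median. Its nominal difference was 0.32 (SE 0.099, adjusted p = 0.477), and the call without Tg2576 replicate 2 (0.40) rests on the same background values. Htra1, a secreted serine protease, differed by 0.40 (SE 0.15, adjusted p = 0.544).

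Among 20 lipoprotein receptors and lipidation genes, 16 lay above 0 and 4 below, with a median of 0.085. Lrp10, a small relative of the LDL receptor that traffics between Golgi and endosomes, was at 9.48, 9.44 and 9.51 in Tg2576 OBs, against 9.14, 9.12 and 9.21 in WT OBs. Its arrays were tight in both genotypes and did not overlap. The difference of 0.32 (SE 0.073) had the smallest p of the 5 lists (adjusted p = 0.365 in limma), with a fold of 1.25 under the threshold. Mylip, a ubiquitin ligase that marks the LDL receptor for degradation, differed by 0.24 (SE 0.084, adjusted p = 0.508 in limma). Pltp, which encodes phospholipid transfer protein, differed by 0.30 (SE 0.11, adjusted p = 0.533).

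The 17 VPS10 receptors and retromer genes, the partners of Sorl1 in sorting, had a median of 0.041, with 11 above 0. Sorcs1, a VPS10 receptor and relative of Sorl1, was at 9.12, 9.22 and 9.29 in Tg2576 OBs, against 9.04, 9.01 and 8.98 in WT OBs. Its genotypes did not overlap, and the difference was 0.20 (SE 0.078, adjusted p = 0.547 in limma), opposite in sign to that of Sorl1. Sorcs3, another relative, differed by 0.18 (SE 0.098, adjusted p = 0.667). Snx6, a sorting nexin of the retromer coat, differed by 0.39 (SE 0.15, adjusted p = 0.548), with 0.53 and both thresholds passed without WT replicate 1 and 0.22 without WT replicate 2.

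Of 31 genes of clathrin endocytosis, 23 lay above 0 and 8 below, with a median of 0.030. Eps15, a scaffold of clathrin-coated pits, was at 11.04, 11.09 and 11.06 in Tg2576 OBs, against 10.77, 10.76 and 10.86 in WT OBs. The genotypes were well apart, and the difference of 0.27 (SE 0.073, adjusted p = 0.418 in limma) was a fold of 1.20, with the unadjusted p past 0.01 and the fold under 1.3. Rab5a, the GTPase of early endosomes, differed by 0.33 (SE 0.14, adjusted p = 0.571), with 0.47 and both thresholds passed without Tg2576 replicate 1 and 0.22 without Tg2576 replicate 3. Bin2, a relative of Bin1 found in microglia and other leukocytes, differed by 0.21 (SE 0.089, adjusted p = 0.578).

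Of 23 other carriers, chaperones and transport genes, 20 lay above 0 and 3 below, with a median of 0.12. A2m, a protease inhibitor that binds Aβ and is taken up by Lrp1, was at 7.41, 7.79 and 7.38 in Tg2576 OBs, against 7.28, 7.21 and 7.09 in WT OBs. All Tg2576 values lay above all WT values, and the difference was 0.33 (SE 0.12, adjusted p = 0.529 in limma). Aqp4, the water channel of astrocyte endfeet and also one of the astrocyte markers, differed by 0.20 (SE 0.084, adjusted p = 0.568). Hspg2, which encodes the basement membrane proteoglycan perlecan, differed by 0.20 (SE 0.11, adjusted p = 0.659). Endothelial and mural markers, measured as 10 genes of which 1 was called (Cldn5, higher by 0.67), had a mean shift of 0.31, 0.15 and 0.26 in Tg2576 replicates 1, 2 and 3, against -0.012, 0.029 and -0.017 in WT replicates 1, 2 and 3. The part of vessel or glial content in the list values was not tested.

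**Figure D5:**
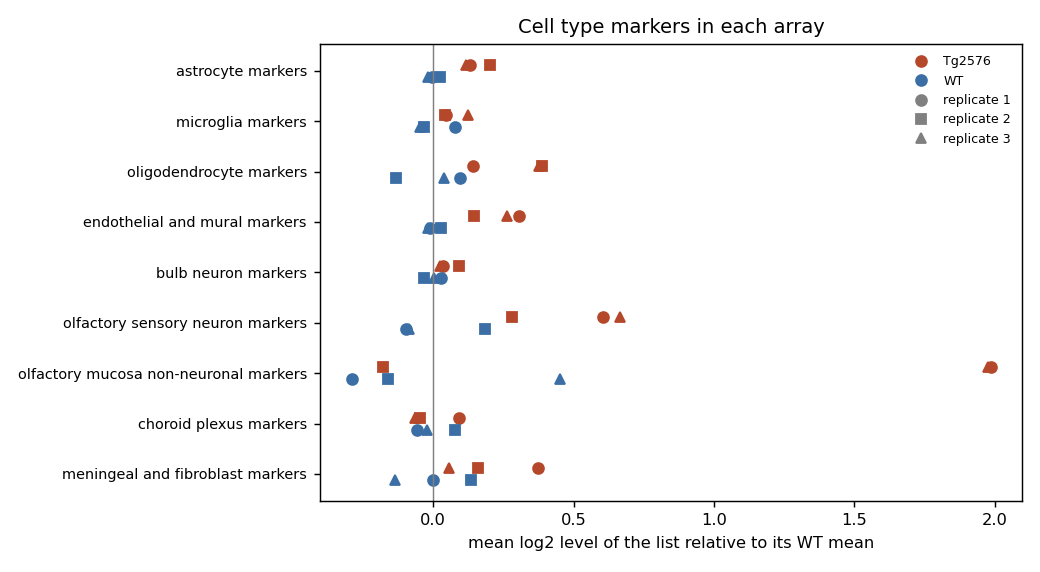
Mean log2 level of each marker list relative to its WT mean (x axis) in each Tg2576 (red) and WT (blue) array, with replicates by symbol. The mucosa markers split the Tg2576 arrays (1.98, -0.18 and 1.98), while the astrocyte markers lay at 0.12 to 0.20 in all 3.

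Summaries over all probe sets were alike between the arrays, which does not cover their tissue content. Medians over the tested probe sets lay between 8.18 and 8.22, array pairs correlated at 0.992 to 0.995 (Pearson), and no pair held identical values. Bulb neuron markers had a lowest gene mean of 8.99 over 12 genes, under the level that 95% of the negative controls did not exceed (9.94 to 10.07). Their levels gave no check on admixed tissue. Of these 12, 1 was called, higher in Tg2576 OBs, while 7 lay above 0 and 5 below. Without overlap between genotypes, 4 genes were higher and 3 lower, against 14.1% of all probe sets without overlap. Their mean shift, in which opposite signs offset, was 0.035, 0.091 and 0.026 in Tg2576 arrays, against 0.030, -0.033 and 0.0029 in WT arrays. The markers of sensory neurons of the nose, which send axons into the OB, had a mean shift of 0.61, 0.28 and 0.67 in Tg2576 arrays, against -0.097, 0.18 and -0.087 in WT arrays, and 5 of 10 were called. The mean shift of 8 choroid plexus markers ranged from -0.064 to 0.093 in Tg2576 arrays and from -0.057 to 0.079 in WT arrays. Opposite signs offset here too, with 4 genes above 0 and 4 below and differences from -0.32 to 0.30. Of these 8, 0 were called.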

How the data were processed

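RNA of 6 OBs was hybridised to Affymetrix mouse Clarion S arrays. The authors processed the arrays with RMA, a background correction with quantile alignment and a summary per probe set, and deposited the log2 values. Its version and the arrays normalized together are not given in the sources used here. Of 28815 probe sets, 63 spike-in, 5222 negative and 1324 positive controls were left out. Of the 22206 tested, 19572 had 1 gene symbol in the platform table, 0 had several and 2634 had none. Where a gene had several sets, that with the highest mean was used.

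The difference between genotypes was fitted in limma (version 3.58.1, under R 4.3.3, prior degrees of freedom 4.47), and p values were adjusted over all probe sets by the Benjamini-Hochberg method, which called 0 at 5% (smallest adjusted p = 0.332). Before adjustment 1896 had a p under 0.05. Robust limma-trend called 9 at 5%, 0 of them among the 8 genes. An exact test of 3 against 3 mice cannot go below p = 0.1. The limit on p is that of the study's methods for the arrays, and the fold limits are those of its own list of array results. The number of arrays limits the precision. Named genes were the 8 measured members, App, the 3 genes of smallest p in each pathway list, and the 3 most like Mme. Csf1r, Gfap, Cldn5, Cldn11, Sox10, Dcn, Bgn and Trp63 were named after their values were seen. The members and lists were chosen with earlier results of these data known. Promoters and motifs were read from RefSeq windows (GRCm38.p6). The settings varied were array weights, robust limma-trend, 3 further normalizations, a filter at a mean of 6, averaged probe sets, a replicate block, 2 fold thresholds and each array left out. Plots came from matplotlib 3.10.9 and tables from pandas 2.3.3 and numpy 2.4.6, under Python 3.11.15.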

Additional observations from a re-analysis of the deposited data

How the results depend on the processing

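The count of called genes among the 8 was 0 in limma and 1, Mme, with limma-trend, with the replicate number as a block, and without Tg2576 replicate 3, so it ranged from 0 to 1 with 1 array left out. It stayed at 0 under array weights, the 3 normalizations and the filter on low values. Averaged probe sets and both other fold thresholds also gave 0, but could not have raised the count. Each gene had 1 probe set, and none had an unadjusted p under 0.01 in limma. The labels give replicate numbers and state no pairing between genotypes. Over all probe sets, deviations of same-numbered arrays from their group means correlated at 0.036, -0.038 and -0.043. That cannot exclude a link between same-numbered arrays for single genes. With the block, Mme kept its difference of 0.53 with an SE of 0.11, and 225 probe sets were called, against 177 without it. The number of genes without overlap between genotypes was 1 with all arrays and 1 to 4 with 1 array left out, where fewer samples make a gap easier. The share over all probe sets was 14.1% with all arrays and was not counted with 1 array left out. The higher counts therefore have no background to be read against. After median centring the number of genes was 1, but Bin1 in place of Sorl1. Of the 113 pathway genes, 3 passed when no fold was required (Mmp14, Lrp10 and Eps15), and 0 to 1 with 1 array left out. Over all probe sets 468 had p under 0.01 without a fold threshold. With 1 array left out the difference of Ide ranged from -0.069, without Tg2576 replicate 2, to 0.21. All other differences of the 8 genes kept their sign in the 14 alternatives run for each.

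The 3 arrays per genotype limit what can be seen. The half-width of the 95% interval ran from 0.18 to 0.41 on the log2 scale, and the probe sets of Mme and Ece1 in all 6 arrays, and that of Ide in 3, lay under the level that 95% of the negative controls did not exceed (9.94 to 10.07). So did 75 of the 113 pathway genes in all 6 arrays, among them Mmp9, A2m, Snx6 and Lrp10. The median of all tested probe sets, 8.18 to 8.22 by array, also lay under it, so such a position is common on this array.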
